A study of Mus musculus with 9 samples.

Results

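Glycolysis and the genes induced by low oxygen were described in N1E-115 cells, a mouse neuroblastoma line, as 36 genes chosen by symbol for their role. Of these, 31 had a probe set annotated to them alone and were analysed, out of 22180 genes on the arrays. Gpi1 and Eno1, and Aldoa, Bnip3l and Ankrd37, whose probe sets carried another gene's symbol too, were not analysed here. The arrays fell into 3 groups of 3, which were cells with Hmgn5 siRNA after 24 h and cells with control siRNA after either 24 h or 4 h. All cells received 80 nM of an siRNA pool, spent a night without serum and were then replated on laminin to grow neurites for the time named. The series concerns Hmgn5, a nucleosome-binding protein, in neurite outgrowth, and the arrays gave 2 direct comparisons: Hmgn5 siRNA against control siRNA at 24 h, and 24 h against 4 h in control cells. A further comparison sets the knockdown arrays against the 4 h arrays, where the effects of siRNA and of time cannot be told apart. All arrays come from the same tumour-derived line, and Hmgn5 siRNA was analysed here at 24 h only.

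Glycolysis turns glucose into pyruvate with a gain of ATP, and cells that divide fast or lack oxygen send much of that pyruvate to lactate. Hypoxia-inducible factors, made of an oxygen-labile alpha subunit and a stable partner, bind short DNA elements and raise the genes of glucose uptake, glycolysis, lactate export and adaptation to low oxygen. Prolyl hydroxylases mark the alpha subunit for destruction while oxygen is present. HIF-1 alpha is therefore controlled largely at the protein level, which these arrays did not measure.

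Values are log2 expression per probe set, and a difference of 1 is a doubling. A gene was called when its limma p, adjusted over all 22180 genes by Benjamini-Hochberg, was under 0.05. Hmgn5 checked the labels: it stood at 3.53, 3.45 and 3.50 with Hmgn5 siRNA and at 4.77, 4.66 and 4.69 with control siRNA at 24 h, a log2 difference of -1.21 (SE 0.09, adjusted p = 0.00367). At 4 h it was 4.53, 4.23 and 4.57. Hmgn5 gave low signal, exceeding 13.8% to 42.5% of the values on each array, and background was not estimated. The size of its fall is therefore uncertain. Its call at 24 h was lost without control 24 h replicate 1 or without Hmgn5 siRNA replicate 2 or 3. Neuroblastoma and sympathetic markers had a mean level of 10.88 to 10.91 with Hmgn5 siRNA, 10.88 to 10.99 with control siRNA at 24 h and 10.48 to 10.76 at 4 h. The 4 lists for endothelium, leukocytes, fibroblasts and glia lay between 4.30 and 4.98 on all arrays. No marker of those other cell types was called in any comparison. Of the 10 neuroblastoma and sympathetic markers 2 rose over time in control cells, Th by 0.53 and Dbh by 0.80, which make catecholamines, where 2.17% of all genes were called higher. The times did not overlap for 8 of the 10, 7 above and 1 below, beside 21.3% of all genes. Without control 4 h replicate 2, an array described next, Th (0.47), Dbh (0.67) and Chga, a secretory granule protein gene (0.25, adjusted p = 0.0429), were called. The part of this shift in the results below was not tested. In whole-culture RNA, fewer cells of a type and less RNA per cell cannot be told apart.

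The array of control siRNA at 4 h numbered replicate 2 stood apart, with a quality weight of 0.198 where the other 8 had 0.789 to 1.74. It was low for many members. It held the lowest of the 9 values for 14 of the 31 members (45.2%), against 22.6% of all genes. It also held the highest value for 2 members (6.45%) and for 21.9% of all genes. Its median value was the highest of the 9 arrays (5.299). It lay below both other 4 h arrays for 22 members (71%), against 36.3% of all genes, and at least 0.5 log2 units below their mean for 6 members (19.4%), against 3.92% of all genes. Shares among brighter genes alone were not computed. Its mean level was also the lowest at 4 h for the neuroblastoma and sympathetic markers (10.48 against 10.75 and 10.76). The same held for the further lists of glycolysis, pyruvate entry, pentose phosphate and hypoxia-inducible genes described below. It did not hold for regulators of the hypoxia-inducible factors or for markers of other cell types. Low values on this array were thus not particular to the members. Calls that use the 4 h group, and differences that depend on that array, are therefore given with and without it.

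Over time in control cells 2 glycolytic enzymes and Ndrg1 fell and P4ha2 rose, so that 4 of 31 members (12.9%) changed, where 4.34% of all genes were called (2.17% higher and 2.17% lower). None of the 31 members was among the dimmest 33% of genes. When the dimmest 33% were left out of the fit, 2 members rose and 3 fell, and 8.30% of the remaining 14860 genes were called. Differences were spread to both sides, as 16 lay above 0 and 15 below (54.9% and 45.1% of all genes), with a median of 0.02 beside 0.02 for all genes. The arrays of the times did not overlap for 14 members (45.2%), where 21.3% of all genes were so separated. Of these, 7 were above and 7 below, with 11.3% and 9.98% of all genes.

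Pgk1, phosphoglycerate kinase, which makes ATP in the payoff phase of glycolysis, fell. Its values were 12.36, 12.41 and 12.41 at 24 h and 12.84, 12.67 and 12.78 at 4 h in control cells. The times did not overlap, and the gap was larger than the spread within either. The log2 difference was -0.37, 1.29-fold lower at 24 h (SE 0.06, adjusted p = 0.0146).

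Tpi1, triose phosphate isomerase, which interconverts the pair of three-carbon products of aldolase, fell as well. It stood at 11.68, 11.70 and 11.70 at 24 h and at 11.95, 11.92 and 12.02 at 4 h. The 24 h arrays were almost level and all below the 4 h arrays. The difference was -0.27, or 1.21-fold lower (SE 0.05, adjusted p = 0.0236).

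Ndrg1, a cytosolic protein induced by hypoxia and stress, was 7.52, 7.46 and 7.50 at 24 h and 7.87, 7.81 and 7.81 at 4 h. All 3 later arrays lay below all 3 earlier ones, by -0.34 on the log2 scale (SE 0.05, adjusted p = 0.0114). Another, dimmer probe set of Ndrg1 gave 0.06, and with the mean of both probe sets the difference was -0.14 and not called (adjusted p = 0.351).

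P4ha2, the alpha subunit of a collagen prolyl 4-hydroxylase, moved the opposite way. Its values were 9.06, 8.94 and 8.78 at 24 h and 8.56, 8.14 and 8.51 at 4 h. It was the only member that rose, by 0.52 or 1.43-fold (SE 0.11, adjusted p = 0.0337), with no overlap between the times. P4ha1, the related alpha subunit, also had all 24 h arrays above all 4 h arrays (0.24) but did not pass (adjusted p = 0.0665).

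The promoters of members called in any comparison and with 1 annotated start are shown because hypoxia-inducible factors recognise the core letters ACGTG and GCGTG. Ndrg1 had no promoter entry in the reference used and Ak4 had 4 annotated starts, so neither is shown. Each is the 250 bases before the start, from RefSeq on GRCm38.p6, read 5′ to 3′ on the gene's strand, with ACGTG and GCGTG on either strand in capitals. Pgk1 is at chrX:106186850-106187099 on the plus strand, Tpi1 at chr6:124814159-124814408 on the minus strand, P4ha2 at chr11:54100674-54100923 on the plus strand and Slc2a1 at chr4:119108495-119108744 on the plus strand.
Pgk1: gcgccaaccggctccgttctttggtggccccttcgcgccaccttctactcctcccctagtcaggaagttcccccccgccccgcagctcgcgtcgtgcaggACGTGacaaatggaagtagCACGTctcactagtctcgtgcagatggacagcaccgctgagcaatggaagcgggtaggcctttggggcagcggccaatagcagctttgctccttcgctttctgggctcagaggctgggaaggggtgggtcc
Tpi1: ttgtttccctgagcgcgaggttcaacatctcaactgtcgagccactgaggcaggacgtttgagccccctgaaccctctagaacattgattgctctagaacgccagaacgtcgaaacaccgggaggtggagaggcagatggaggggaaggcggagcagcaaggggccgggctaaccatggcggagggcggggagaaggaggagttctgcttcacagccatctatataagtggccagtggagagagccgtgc
P4ha2: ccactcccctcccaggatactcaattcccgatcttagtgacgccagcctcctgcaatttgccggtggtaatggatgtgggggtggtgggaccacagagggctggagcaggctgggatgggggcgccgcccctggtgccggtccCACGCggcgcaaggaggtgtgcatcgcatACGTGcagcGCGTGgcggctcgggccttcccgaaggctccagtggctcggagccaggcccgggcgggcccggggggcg
Slc2a1: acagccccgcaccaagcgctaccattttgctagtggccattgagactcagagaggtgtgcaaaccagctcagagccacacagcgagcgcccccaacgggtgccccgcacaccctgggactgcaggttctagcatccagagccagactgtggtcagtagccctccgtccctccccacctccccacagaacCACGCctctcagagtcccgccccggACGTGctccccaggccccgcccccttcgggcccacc

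Counted back from the start, with -1 as the base just before it and each match given by its leftmost base, Pgk1 had ACGTG letters at -150 and -131. In the P4ha2 promoter GCGTG letters began at -107 and -69 and ACGTG letters at -78. Slc2a1 held GCGTG letters at -61 and ACGTG letters at -36, and the Tpi1 window held neither. Of the 28 measured members with a RefSeq promoter, 26 (92.9%) had either set of letters on either strand in at least 1 of their promoters, and 17 (60.7%) had ACGTG. Among 11587 array genes outside the dimmest 33%, 57.2% had either and 23.6% had ACGTG, counted by gene in the same way. Counted by single promoter, the shares were 85.1% and 46.8% of 47 promoters of members, measured or not. Among all 32851 RefSeq promoters they were 38.6% and 16.6%. CACGTG, the same on both strands, counts as 2 ACGTG matches, and base composition was not matched. The letters are a description of sequence, and they occurred in a member that fell (Pgk1) and one that rose (P4ha2).

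The calls over time rested on few arrays. Leaving out replicate 1 or 2 of the 24 h controls ended the Pgk1 call (adjusted p up to 0.0641), and leaving out replicate 2 ended that of Ndrg1 (0.0539). Tpi1 needed each of the 24 h controls and also replicates 1 and 3 at 4 h (up to 0.0847). The P4ha2 call survived only the removal of replicate 1 or 2 at 4 h (up to 0.126 otherwise). With single arrays left out the log2 differences ran from -0.41 to -0.33 for Pgk1, from -0.29 to -0.24 for Tpi1, from -0.35 to -0.32 for Ndrg1 and from 0.39 to 0.60 for P4ha2.

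**Figure D1:**
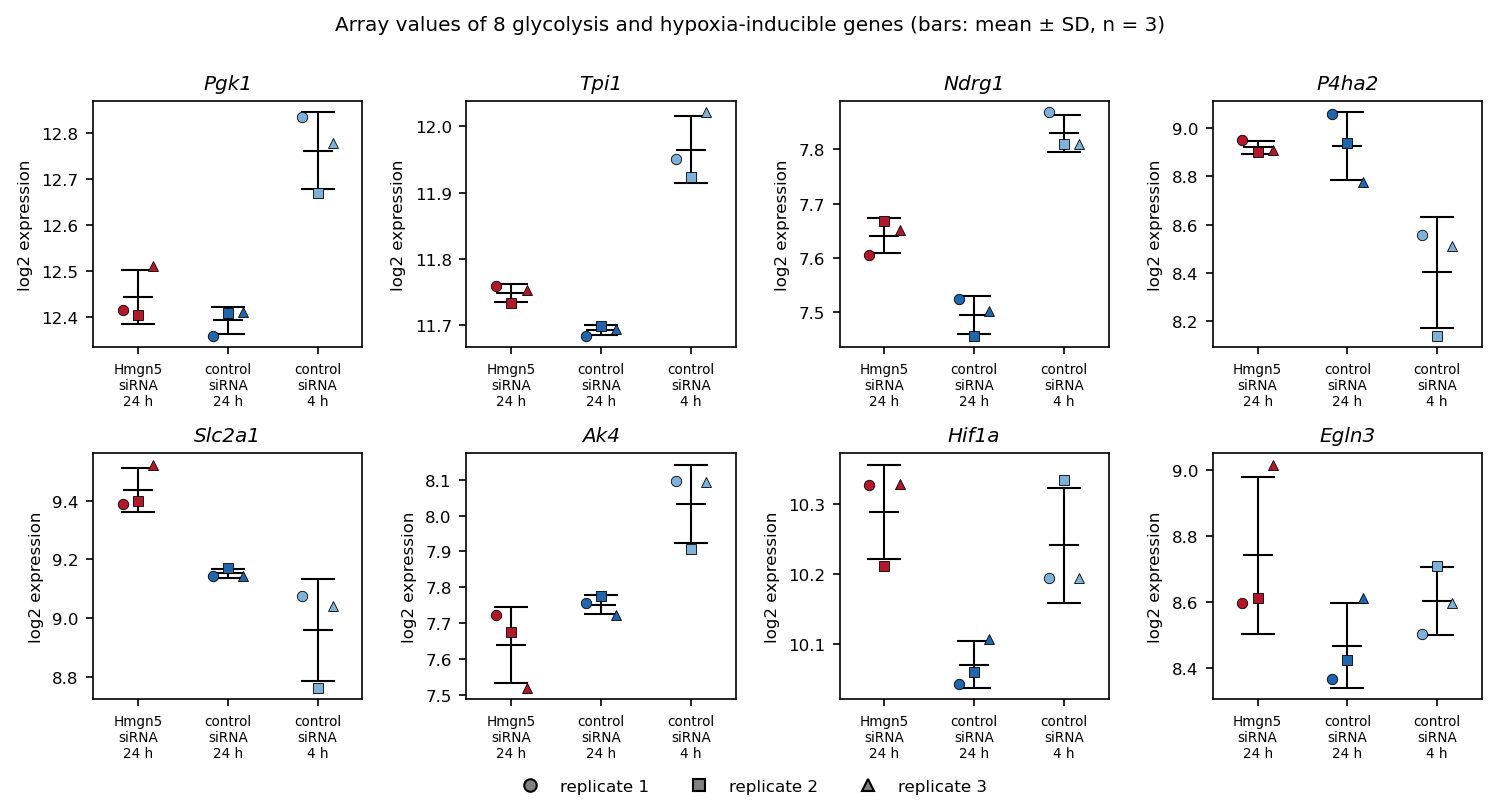
Each point is the log2 expression of 1 array, for the 8 members described by array, with the group mean and SD (n = 3) as bars and the replicate number as the marker shape; each panel has its own vertical scale. Pgk1, Tpi1 and Ndrg1 lie lower at 24 h than at 4 h in control cells and P4ha2 higher, while Slc2a1 and Hif1a lie higher with Hmgn5 siRNA than with control siRNA at 24 h without passing the test.

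Without control 4 h replicate 2, 6 members fell and 1 rose over time, where 2.94% of all genes were called lower and 2.64% higher. The 4 calls above were among these 7, and Slc16a3, Pfkl and Ak4 joined them as falls. Without the array the difference was -0.41 for Pgk1 (adjusted p = 0.00735), -0.29 for Tpi1 (0.0154), -0.35 for Ndrg1 (0.0109) and 0.39 for P4ha2 (0.0323). The median of the members was then -0.06 and that of all genes 0.02, with 13 members above 0 and 18 below. Slc16a3, Pfkl and Ak4, like most members, were lower on this array than on both other 4 h arrays. Leaving it out raises their 4 h mean and moves their differences down by construction. The added falls and the lower median are therefore no separate evidence of a fall over time.

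Slc16a3, the monocarboxylate transporter through which cells export lactate, was one of the members lowest there. It was 8.71, 8.77 and 8.40 at 24 h and 9.46, 8.28 and 9.29 at 4 h, so replicate 2 at 4 h was the lowest of all and the other 4 h arrays the highest. With all arrays the difference was -0.38 (SE 0.26, adjusted p = 0.49), and without replicate 2 it was -0.75, 1.68-fold lower (SE 0.11, adjusted p = 0.0103; 0.0103 to 0.796 over all alternatives).

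Pfkl, the liver-type subunit of phosphofructokinase, the committed step of glycolysis, had the same arrangement. Its values were 8.89, 8.97 and 8.72 at 24 h and 9.31, 8.61 and 9.27 at 4 h. The difference was -0.21 with all arrays (adjusted p = 0.571) and -0.43 without the array (adjusted p = 0.0217; 0.0217 to 0.849 over all alternatives).

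Ak4, a mitochondrial adenylate kinase induced by hypoxia, was not among the 6 members lowest by that margin on the array. It was 7.76, 7.78 and 7.72 at 24 h and 8.10, 7.91 and 8.09 at 4 h, with no overlap. It missed the threshold with all arrays (-0.28, adjusted p = 0.0792) and fell without replicate 2 (-0.34, adjusted p = 0.0268; 0.0132 to 0.206 over all alternatives).

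Aldoc, the aldolase typical of brain, turned sign: its difference was 0.21 with all arrays and -0.18 without that array, called in neither case (adjusted p = 0.739 and 0.163). Its values were 9.53, 9.54 and 9.40 at 24 h, against 9.71, 8.50 and 9.64 at 4 h. Slc2a3, the neuronal glucose transporter, stood at 11.14, 11.03 and 11.06 at 24 h and at 11.07, 10.53 and 11.06 at 4 h, and its difference of 0.19 was 0.01 without the array. Why replicate 2 at 4 h stood apart was not tested.

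**Figure D2:**
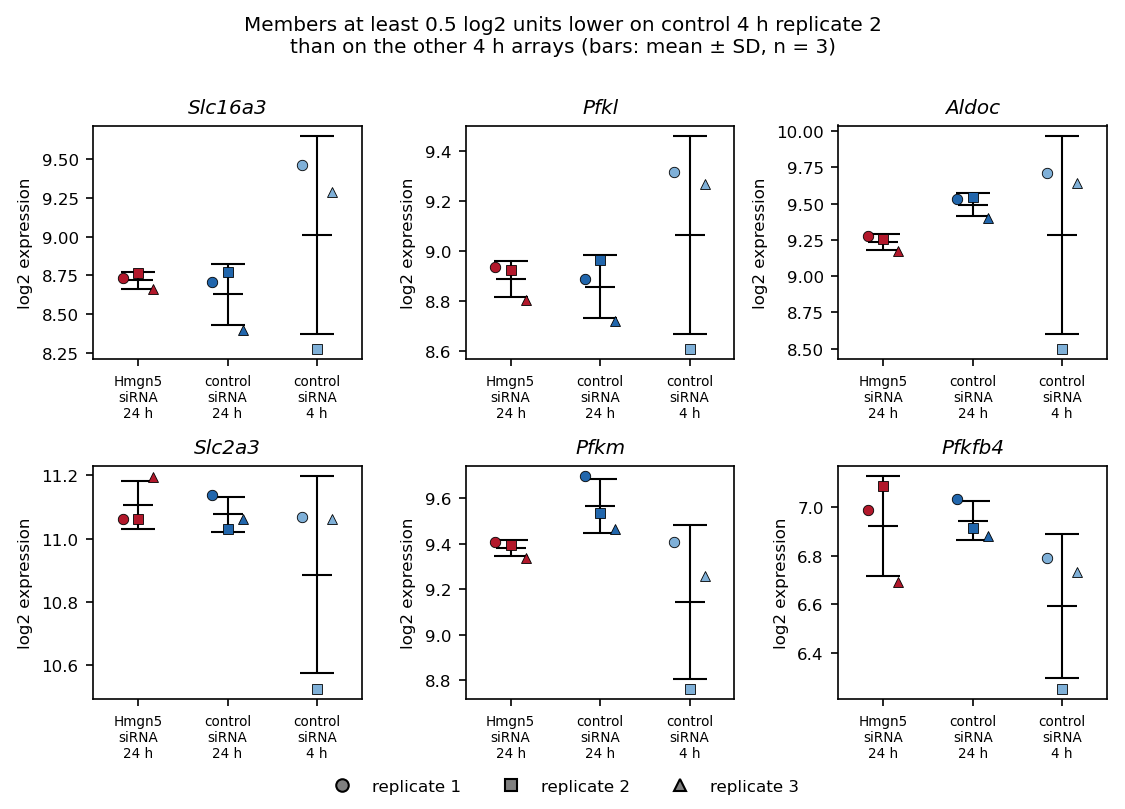
Log2 expression on each array for the 6 members that were at least 0.5 log2 units lower on control 4 h replicate 2 than on the mean of the other 4 h arrays, with group means and SDs (n = 3) as bars; panels have their own scales. In every panel the square of the 4 h group is the lowest of the 9 points, and for Slc16a3, Pfkl and Aldoc the other 4 h arrays are the highest.

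**Figure D3:**
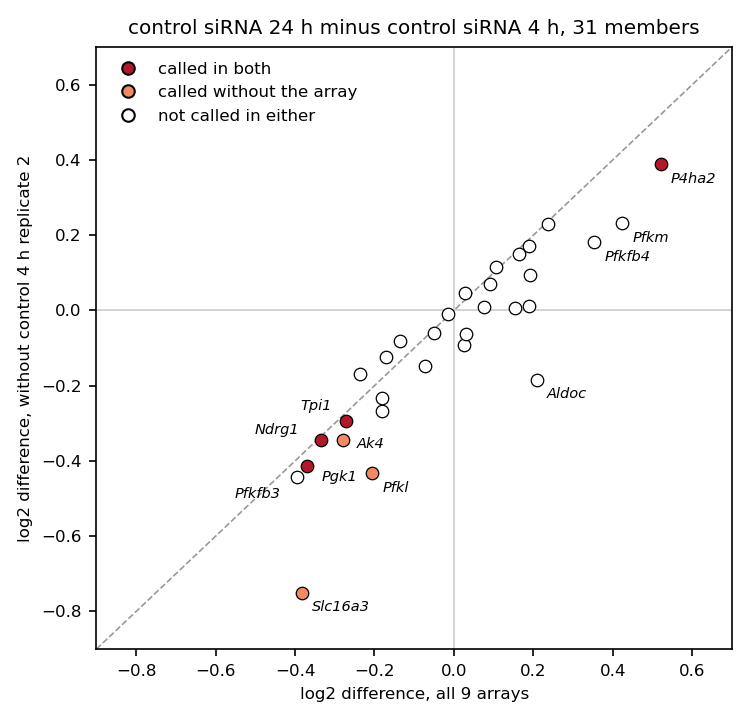
Log2 difference of 24 h minus 4 h in control cells for the 31 members, with all 9 arrays on the horizontal axis and without control 4 h replicate 2 on the vertical axis; the dashed line marks equal values and the fill the adjusted p under 0.05. Slc16a3 moves from -0.38 to -0.75 and Aldoc from 0.21 to -0.18, while Pgk1, Tpi1, Ndrg1 and P4ha2 are called in both.

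The remaining members did not pass over time. Among the enzymes, hexokinase Hk1 (0.19, adjusted p = 0.152) and the muscle-type phosphofructokinase Pfkm (0.42, adjusted p = 0.15) had all 24 h arrays above all 4 h arrays. Without control 4 h replicate 2 the Pfkm difference was 0.23 (adjusted p = 0.157) and that of Hk1 0.17. Lactate dehydrogenase Ldha (-0.18, adjusted p = 0.186) had them all below. Phosphoglycerate mutase Pgam1 (-0.18) overlapped between the times, as did Hk2 (0.08), the platelet-type phosphofructokinase Pfkp (0.02), the neuronal enolase Eno2 (0.15) and Ldhb (0.09). Without the array the difference was 0.0054 for Eno2, 0.01 for Hk2, -0.09 for Pfkp, which turned sign, and -0.27 for Pgam1, none of them called. Gapdh, at 13.08, 13.04 and 13.11 at 24 h and 13.12, 13.11 and 13.15 at 4 h, differed by -0.05 (adjusted p = 0.674). Its 3 probe sets gave -0.05, -0.06 and -0.10, and Gapdh has many near-identical pseudogene copies, so its signal is uncertain.

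The enzymes that set flux were not called. Pfkfb3, which makes the activator of phosphofructokinase, was 6.93, 6.89 and 7.33 at 24 h and 7.42, 7.35 and 7.57 at 4 h (-0.40, adjusted p = 0.287). Its relative Pfkfb4 was 7.03, 6.92 and 6.88 at 24 h and 6.79, 6.25 and 6.73 at 4 h (0.35, adjusted p = 0.243). For each of them the times did not overlap, and neither passed the test. Without control 4 h replicate 2 the difference was -0.44 for Pfkfb3 (adjusted p = 0.31) and 0.18 for Pfkfb4 (adjusted p = 0.434). Pdk1, the kinase that blocks pyruvate dehydrogenase, differed by 0.03, and by -0.06 without the array. The glucose transporter Slc2a1 had 0.19, or 0.09 without the array, and the lactate and pyruvate carrier Slc16a1 had -0.01, neither called.

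Regulators of the hypoxia response stayed without a call over time. The factor Hif1a was 10.04, 10.06 and 10.11 at 24 h and 10.19, 10.34 and 10.19 at 4 h (-0.17, adjusted p = 0.201), all later arrays below all earlier ones. Epas1, which encodes HIF-2 alpha, differed by 0.16, and the prolyl hydroxylases Egln1 and Egln3 by -0.07 and -0.14. Without the array Hif1a differed by -0.12, Egln1 by -0.15 and Egln3 by -0.08, none called. Differences of the mitophagy receptor gene Bnip3 (0.03), the carbonic anhydrase gene Car9 (0.11) and the peptide hormone gene Adm (-0.24) were not called. Car9, Adm, Ldhb and Epas1 gave low signal, exceeding 39.6% to 56.5% of the values on each array, and background was not estimated there.

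**Figure D4:**
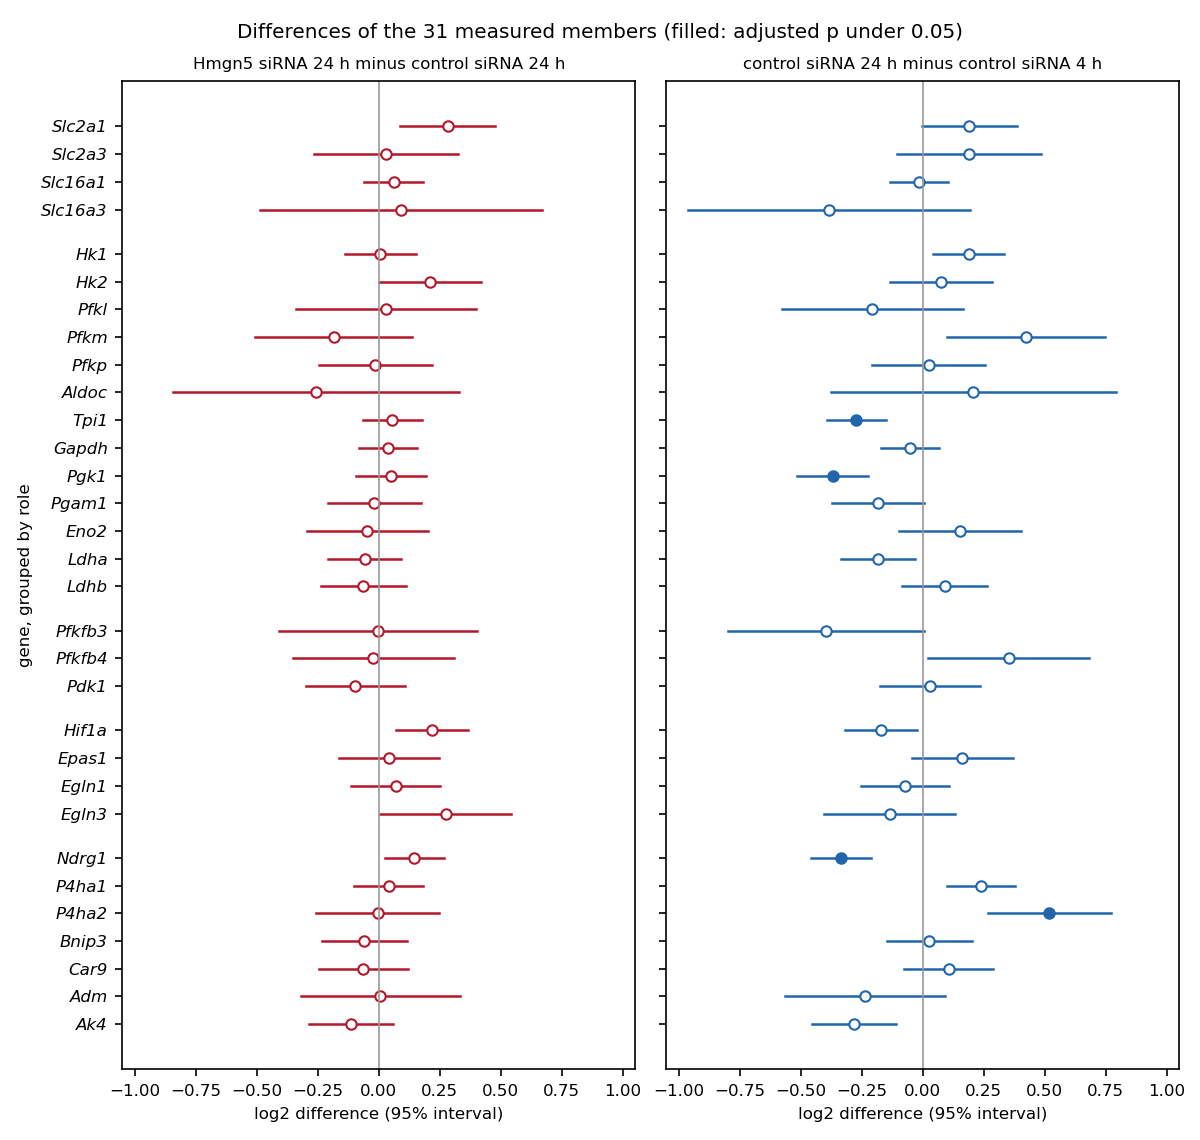
Log2 difference with its 95% interval from the limma fit for the 31 members, grouped from top to bottom as transporters, enzymes, flux regulators, hypoxia-inducible factors with prolyl hydroxylases, and other hypoxia-inducible genes. The left panel, Hmgn5 siRNA minus control siRNA at 24 h, has no filled point, and the right panel, 24 h minus 4 h in control cells, has 4, with Pgk1, Tpi1 and Ndrg1 below 0 and P4ha2 above.

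At Hmgn5 knockdown no member was called by limma, where 0.0135% of all genes were (0.00902% higher and 0.00451% lower). At an unadjusted p under 0.05 there were 5 of 31 members, and 5.25% of all genes. Those 5 were Hif1a, Slc2a1, Ndrg1, Egln3 and Hk2, all with higher values at knockdown. Positive differences numbered 17 and negative ones 14 (49.2% and 50.8% of all genes), with a median of 0.01 beside -0.0019 for all genes. The groups did not overlap for 7 members (22.6%) and for 12.3% of all genes; 5 of the 7 were above and 2 below, with 6.65% and 5.62% of all genes. No member was called under any alternative run, including the fit without control 4 h replicate 2, where 0.00451% of all genes were called in each direction. Without control 24 h replicate 1, or without Hmgn5 siRNA replicate 2 or 3, no gene at all was called. Those runs therefore show nothing particular to the members.

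Hif1a stood at 10.33, 10.21 and 10.33 with Hmgn5 siRNA and at 10.04, 10.06 and 10.11 with control siRNA. The lowest knockdown array exceeded the highest control array, and the difference was 0.22 with a 95% interval of 0.07 to 0.36 (adjusted p = 0.79). A dimmer probe set of Hif1a gave -0.02, and the mean of both probe sets 0.10 (adjusted p = 0.987). The control arrays at 24 h are shared with the comparison over time, so that the Hif1a and Ndrg1 differences of opposite sign in the 2 comparisons are not independent.

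Slc2a1, the main glucose transporter of many cell types, was 9.39, 9.40 and 9.52 with Hmgn5 siRNA and 9.14, 9.17 and 9.14 with control siRNA. The groups were apart, with a difference of 0.28 and a 95% interval of 0.09 to 0.48 (adjusted p = 0.792). The dimmer probe set of Slc2a1 gave -0.08, and the mean of both 0.10 (adjusted p = 0.987). Without control 4 h replicate 2, which enters through the shared estimate of spread, its adjusted p was 0.2.

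Ndrg1 was 7.61, 7.67 and 7.65 with Hmgn5 siRNA and 7.52, 7.46 and 7.50 with control siRNA (0.15, adjusted p = 0.926). Egln3, a prolyl hydroxylase that is itself induced by hypoxia, was 8.60, 8.61 and 9.02 with Hmgn5 siRNA and 8.37, 8.42 and 8.61 with control siRNA (0.27, adjusted p = 0.944). Its groups overlapped, and Hmgn5 siRNA replicate 3 was the highest array. Without that array the Egln3 difference was 0.14.

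The abundant enzymes had narrow intervals at knockdown. For Pgk1 the 95% interval of the log2 difference ran from -0.09 to 0.19, for Gapdh from -0.08 to 0.16 and for Tpi1 from -0.07 to 0.18. A change of 1.5-fold lay outside these 3 intervals, which hold only for the probe set analysed. Of the other probe sets of Gapdh, 1 gave 0.04 and the dimmest gave 0.25, not called by limma (adjusted p = 0.987). For Aldoc, by contrast, the interval ran from -0.84 to 0.33, and control 4 h replicate 2 enters its shared spread. Aldoc was 9.28, 9.26 and 9.18 with Hmgn5 siRNA and 9.53, 9.54 and 9.40 with control siRNA at 24 h, all knockdown arrays below (-0.26, adjusted p = 0.999, and 0.292 without that array). Pfkm was the other member with all knockdown arrays below, at -0.18 (adjusted p = 0.989).

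Set against control siRNA at 4 h, cells with Hmgn5 siRNA at 24 h had 2 members higher and 2 lower, 12.9% of the 31, where 2.57% of all genes were called (1.52% higher and 1.04% lower). In the fit without the dimmest 33% there were 3 higher and 2 lower, and 5.22% of genes were called. Differences above and below 0 numbered 16 and 15 (51.9% and 48.1% of all genes), and 6 members lay apart above and 5 below (10.3% and 8.59% of all genes). This comparison shares its arrays with both others and is no independent evidence for either. Slc2a1 rose, with the knockdown values above against 9.08, 8.76 and 9.04 at 4 h, no overlap and a difference of 0.48, or 1.39-fold (SE 0.09, adjusted p = 0.0233). P4ha2 rose by 0.52 (SE 0.11, adjusted p = 0.0476), with knockdown values of 8.95, 8.90 and 8.91. Pgk1 fell by 0.32 (SE 0.06, adjusted p = 0.0341), its knockdown values being 12.42, 12.40 and 12.51. Ak4 fell by 0.39 (SE 0.08, adjusted p = 0.0307), with 7.72, 7.67 and 7.52 at knockdown. The Slc2a1 call was lost without any 1 of the Hmgn5 siRNA arrays (adjusted p up to 0.0912) and under the mean of its 2 probe sets, where the dimmer gave -0.01 (0.23, adjusted p = 0.135). The other 3 were kept only without control 4 h replicate 2 and lost without any other single array (up to 0.15). Without control 4 h replicate 2, 2 members rose and 7 fell, where 2.01% of all genes were called higher and 1.53% lower. Slc16a3 (-0.66), Ak4 (-0.46), Aldoc (-0.44), Pfkl (-0.40), Pgk1 (-0.36), Ldha (-0.29) and Tpi1 (-0.24) were the falls, with adjusted p between 0.0142 and 0.0412. Here too, leaving out an array that was low for these genes moves their differences down by construction.

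Among 87 other genes of the same pathways, from lists chosen for role, 2 rose and 5 fell over time in control cells (8.05%), where 4.34% of all genes were called, 2.17% in each direction. Most of the 87 were not among the dimmest 33%, and in the fit without those 8.3% of genes were called. Of 19 remaining glycolytic genes none was called by limma in any comparison, nor were 11 genes of pyruvate entry into mitochondria or 11 regulators of the hypoxia-inducible factors, with all arrays in the fit. At an unadjusted p under 0.05 there were 1, 1 and 0 of them at knockdown and 0, 4 and 0 over time, where 5.25% and 18% of all genes reached it. With Hmgn5 siRNA at 24 h set against 4 h, 0, 5 and 1 reached it, and 15.7% of all genes. Pkm, pyruvate kinase, had the same arrangement as Slc16a3, with 11.16, 11.22 and 11.20 at 24 h and 11.51, 10.96 and 11.45 at 4 h in control cells. Its difference over time was -0.11 with all arrays (adjusted p = 0.694) and -0.28 without control 4 h replicate 2 (adjusted p = 0.0191), and -0.28 for Hmgn5 siRNA at 24 h against 4 h in that fit (adjusted p = 0.0269). Without the array Pdp1, a pyruvate dehydrogenase phosphatase, was also higher over time (0.33, adjusted p = 0.0104) and against 4 h with Hmgn5 siRNA (0.24, adjusted p = 0.0401). Tigar, a fructose bisphosphatase induced by p53, was then lower with Hmgn5 siRNA at 24 h than at 4 h (-0.30, adjusted p = 0.0306). Pkm and Tigar were themselves low on the array left out, so its removal moves their differences down by construction. Of 6 pentose phosphate genes Rpia, ribose 5-phosphate isomerase, fell over time by 0.64 (adjusted p = 0.0208), a call that depended on replicate 2 of the 24 h controls and on replicates 1 and 3 at 4 h (up to 0.06).

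Of 40 further hypoxia-inducible genes 2 rose and 4 fell over time in control cells (15%, beside 4.34% of all genes), with a median of -0.02 beside 0.02 for all genes. In the fit without the dimmest 33%, 8.3% of genes were called. The cyclin gene Ccng2 rose by 1.24 (adjusted p = 0.00209) and Narf by 0.78 (adjusted p = 0.0365). The annexin gene Anxa2 fell by 0.74 (adjusted p = 0.00065), the haem oxygenase gene Hmox1 by 0.87 (adjusted p = 0.00443), the lipid droplet protein gene Hilpda by 0.33 (adjusted p = 0.0174) and the endoplasmic reticulum oxidase gene Ero1a by 0.33 (adjusted p = 0.0401). Calls of Ccng2, Anxa2 and Hmox1 held with any 1 array left out. Hilpda was lost without control 24 h replicate 2 or 3 or control 4 h replicate 3 (up to 0.0639). Most single removals, that of control 4 h replicate 2 included, ended the calls of Narf and Ero1a (up to 0.138 and 0.135). None of these 87 other pathway genes was called at knockdown, where 0.0135% of all genes were. An unadjusted limma p under 0.05 was reached by 7 of the 87, and by 5.25% of all genes.

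Set against control siRNA at 4 h, Hmgn5 siRNA at 24 h had 1 of the 40 further hypoxia-inducible genes higher, Ccng2, and 4 lower, where 1.52% of all genes were higher and 1.04% lower. In the fit without the dimmest 33%, 5.22% of genes were called. Car12, a membrane carbonic anhydrase, was 8.43, 8.43 and 8.41 with Hmgn5 siRNA. Control cells had 8.69, 8.73 and 8.71 at 24 h and 8.91, 8.89 and 8.86 at 4 h. The 3 groups were fully apart in that order. Only the outer comparison was called (-0.47, adjusted p = 0.00397), and it held with any 1 array left out. The 24 h knockdown difference of Car12 was -0.29 (adjusted p = 0.283) and its time difference -0.18 (adjusted p = 0.0947). The other 3 lower genes were Anxa2, Hmox1 and Hilpda. The Anxa2 call was lost without Hmgn5 siRNA replicate 1 or 2 (up to 0.064), and those of Hmox1 and Hilpda were lost with most single arrays left out (up to 0.142 and 0.133).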

How the data were processed

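Total RNA of 9 samples was measured on whole-transcript arrays, 1 array per sample. The labels' protocols state amplification to sense-strand cDNA labelled with biotin. Each deposited value is the log2 expression of 1 probe set. Per the submitters' processing notes the authors used RMA and oligo (versions not given in the sources used here). RMA brings arrays towards a common distribution, so a change common to most genes may not show. The deposited values were not fully level: their median was 5.299 on control 4 h replicate 2 and 5.165 to 5.21 on the other arrays. Of 41345 probe sets, 23521 had 1 gene symbol; for 1082 genes with more than 1, that of highest mean was kept. limma 3.58.1 in R 4.3.3 (lmFit, eBayes, all 9 arrays, group means; 6 residual and 3.55 prior degrees of freedom) gave all differences, adjusted by Benjamini-Hochberg. On simulated data for the 24 h against 4 h comparison, with 22180 genes, 75% of genes shifted by 0.5 and 98% shifted by 1 log2 unit were recovered. Each gene had independent noise of the same spread on every simulated array. No array like control 4 h replicate 2 was simulated, so recovery in the real data may be lower. Whether samples came from separate cultures is not stated, so p-values reflect spread between samples that may be technical. Precision is limited by the number of arrays, and an exact permutation test of 3 against 3 cannot go below 0.1. Members and gene lists were chosen with earlier results of these data known. Values by array are given for members called in any comparison and, at knockdown, the 4 with the smallest p; other members with array values were chosen after their values were seen. Alternatives were a replicate block, only the 2 groups compared, a trended robust prior, array weights, no dimmest 33% of genes, cyclic loess, median centring, the mean of probe sets, a minimum of 1.5-fold and each array left out. No genome build for the array is given in the sources used here, so promoter coordinates are those of RefSeq alone.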

Additional observations from a re-analysis of the deposited data

How the results depend on the processing

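At knockdown no member was called under any alternative. No gene at all was called there without control 24 h replicate 1 or without Hmgn5 siRNA replicate 2 or 3. The median of 0.01 at knockdown ran from 0.0063 to 0.041 when single arrays were left out. Over time, leaving out single arrays gave 0 to 1 members higher and 0 to 6 lower. Counts higher and lower over time were 0 and 0 with only the 2 groups compared or with a minimum of 1.5-fold, 2 and 7 with array weights, 2 and 3 without the dimmest 33%, and 1 and 1 with each array centred on its median, where the median of all genes was 0.06. For Hmgn5 siRNA at 24 h against control siRNA at 4 h, leaving out single arrays gave 0 to 2 higher and 0 to 7 lower, and the counts were 0 and 0 with only the 2 groups or 1.5-fold, 3 and 3 with a trended robust prior, 3 and 5 with array weights, 3 and 2 without the dimmest 33%, 2 and 3 with cyclic loess, 2 and 0 after centring, and 1 and 2 with the mean of probe sets. The cause of these differences was not tested.

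The main fit did not pair arrays by replicate number. Deviations from the group means correlated between same-numbered arrays at 0.184, 0.0891 and 0.285 at knockdown and 0.0382 to 0.0624 over time. All 6 arrays of each of these comparisons correlated best with their own number. For Hmgn5 siRNA at 24 h against control siRNA at 4 h the correlations were 0.00851 to 0.0921, and 4 of 6 arrays did so. Whether the numbers mark shared batches was not tested. With the replicate number as a block, members called were 0 at knockdown, 1 higher and 3 lower over time, and 2 higher and 0 lower in the remaining comparison, where Pgk1 and Ak4 had adjusted p = 0.0572 and 0.0511.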
